A study of Sus scrofa with 6 samples.

Results

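The intermediate filament and lamina genes of the piglet left ventricle (LV) were followed as a family of 10 named genes: the keratins KRT8, KRT18 and KRT19, the muscle and mesenchymal filament genes DES, VIM, NES and SYNM, and the lamin genes LMNA, LMNB1 and LMNB2. All probe sets whose only annotated gene symbol was one of these names were taken, which gave 11 of the 23999 probe sets tested and 8 of the 6765 genes with a symbol of their own. For NES and LMNB2 no probe set bore the name, and both are not analysed here. A further 2 probe sets, annotated to SYNM together with another gene, were left out. KRT8 was selected on its MAS5 signals, which were higher in the Dox arrays, so its difference is given as a description with no test. The other genes were chosen by their kinship to it, as filament and lamina genes.

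RNA was prepared from the LV free wall of 6 Large White piglets, 3 injected with Dox and 3 with PBS (phosphate-buffered saline), and each animal was hybridised to its own Affymetrix Porcine Genome Array. Dox is doxorubicin, an anthracycline used against cancer that is toxic to cardiac muscle. By the deposited study description, a single intravenous injection of 2.0 mg/kg Dox, or of PBS, was given to piglets 8 days old, and hearts were taken 3 weeks later, at a labelled age of 28 days. The published methods give a dose range and somewhat different days.

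Intermediate filaments are rope-like polymers of coiled-coil proteins that give cells mechanical strength. Keratins form obligate pairs of a type II member such as KRT8 with a type I member such as KRT18 or KRT19, and are typical of epithelia. In cardiac muscle the main cytoplasmic filament protein is desmin, which ties the Z-discs to each other, to the cell junctions and to the nucleus, while vimentin is the filament protein of fibroblasts, endothelium and other mesenchymal cells. The lamins line the inner nuclear membrane. A-type lamins (LMNA) are abundant in stiff, differentiated tissues, whereas LMNB1 is highly expressed in dividing cells.

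Values are MAS5 signals, the linear brightness of a probe set, scaled by the authors so that the 2% trimmed mean of every array lay at 100.03 or 100.04. The Tag probe sets hold artificial sequences that match no pig transcript, and the brightest of them reached 3.1 to 5.5 on the Dox arrays and 2.5 to 6.3 on the PBS arrays. A probe set no brighter than these on 4 or more of the 6 arrays is called within the Tag range here, and no fold is read from it. This applied to 4 of the 11 probe sets, and to 28.9% of all probe sets. Dox replicate 3 had the lowest mean correlation with the other arrays (0.904, against 0.927 to 0.933 for the other 5). The ratio of 3′ to 5′ signal of the GAPDH control was 1.24 to 1.55 on the Dox arrays and 1.16 to 1.28 on the PBS arrays, and that of the actin control 29.6 to 76.9 on the Dox arrays and 35.1 to 121 on the PBS arrays. The defining genes of the tissue were bright, as 12 cardiomyocyte markers had a summed signal of 60806 to 79155 on the Dox arrays and 50412 to 61262 on the PBS arrays.

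Among the keratins, 1 of the 2 KRT8 probe sets stood above the Tag range in all animals. This brighter KRT8 probe set had signals of 154.8, 210.7 and 296.2 in Dox-injected piglets, against 17.5, 54 and 63.5 in PBS-injected piglets. The lowest Dox animal was above the highest PBS animal. The geometric mean was 213 in Dox-injected and 39.2 in PBS-injected piglets, a fold of 5.44 or a log2 difference of 2.44, and by the size of its difference the probe set ranked 351 of 23999. Signals without overlap and higher in Dox were found for 6.19% of all probe sets, and nothing further is read from the KRT8 difference, since the gene was picked for it. PBS replicate 1 was the lowest array, and without it the log2 difference was 1.86. The second KRT8 probe set did not share this pattern. Its signals were 1, 0.3 and 0.5 in Dox-injected and 0.2, 2.6 and 0.8 in PBS-injected piglets, all 6 within the Tag range, so the KRT8 difference rests on 1 probe set. Probe sequences were not used here, so which of the 2 probe sets measures the KRT8 transcript could not be settled, and the fold of 5.44 is that of the brighter probe set alone.

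The keratin partners of KRT8 were not measurably above the Tag range. KRT18, the usual type I partner in simple epithelia and, in the Sscrofa11.1 annotation, separated from KRT8 by 1 annotated gene, had signals of 0.7, 1.5 and 0.5 in Dox-injected and 0.4, 0.5 and 0.4 in PBS-injected piglets (limma, adjusted p = 0.717). KRT19, an alternative type I partner, had signals of 0.4, 0.4 and 0.7 in Dox-injected and 0.2, 0.7 and 0.6 in PBS-injected piglets (limma, adjusted p = 0.965). All 6 signals of both lay within the Tag range, and at this brightness a change in either gene was not detectable. From so low a signal the absence of a transcript cannot be read.

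**Figure D1:**
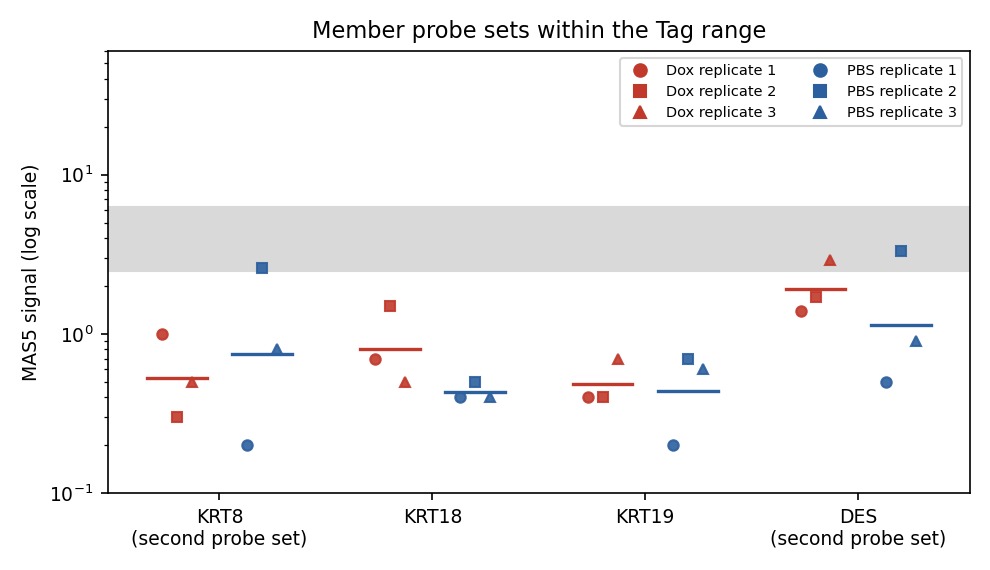
MAS5 signal (log axis) of the 4 member probe sets within the Tag range, with Dox-injected piglets in red and PBS-injected piglets in blue, 1 point per array and lines at the geometric mean of 3 arrays. The grey band spans the highest Tag signals of the 6 arrays, 2.5 to 6.3, and none of the points lies above it.

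Markers of cells that normally carry keratins were dim in both groups, with the exception of CLDN7. Of 19 epithelial and mesothelial marker genes, 9 had a probe set, 4 with a positive and 5 with a negative log2 difference (median -0.05, against -0.10 over all probe sets), and 0 were nominally different, that is, with p of 0.05 or less before adjustment. These counts include 3 genes within the Tag range on 4 or more arrays, and the median of the other 6 was 0.16. EPCAM and CDH1, adhesion genes of epithelia, lay within the Tag range on all 6 arrays, and CALB2, a marker of mesothelium, on 5. WT1, a transcription factor of the epicardium, had signals of 4.5, 6 and 4.6 in Dox-injected and 4.9, 3.1 and 3.4 in PBS-injected piglets. The brightest of these markers was CLDN7, a tight junction gene, with signals of 114.8, 84 and 165.6 in Dox-injected and 63.6, 103.6 and 94.2 in PBS-injected piglets (log2 difference 0.45, limma, adjusted p = 0.633). CLDN3 and CLDN4, also tight junction genes, were dim, at 1.8 to 13.4 and 2.8 to 13.7 over the 6 arrays. Their log2 differences were 1.03 and -0.82 (limma, adjusted p = 0.63 and 0.626), and that of CLDN3 was 0.22 without PBS replicate 1. The summed signal of the 9 genes was 118 to 204 on the Dox arrays and 111 to 142 on the PBS arrays. The part of such cells in the KRT8 signal was not tested.

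**Figure D2:**
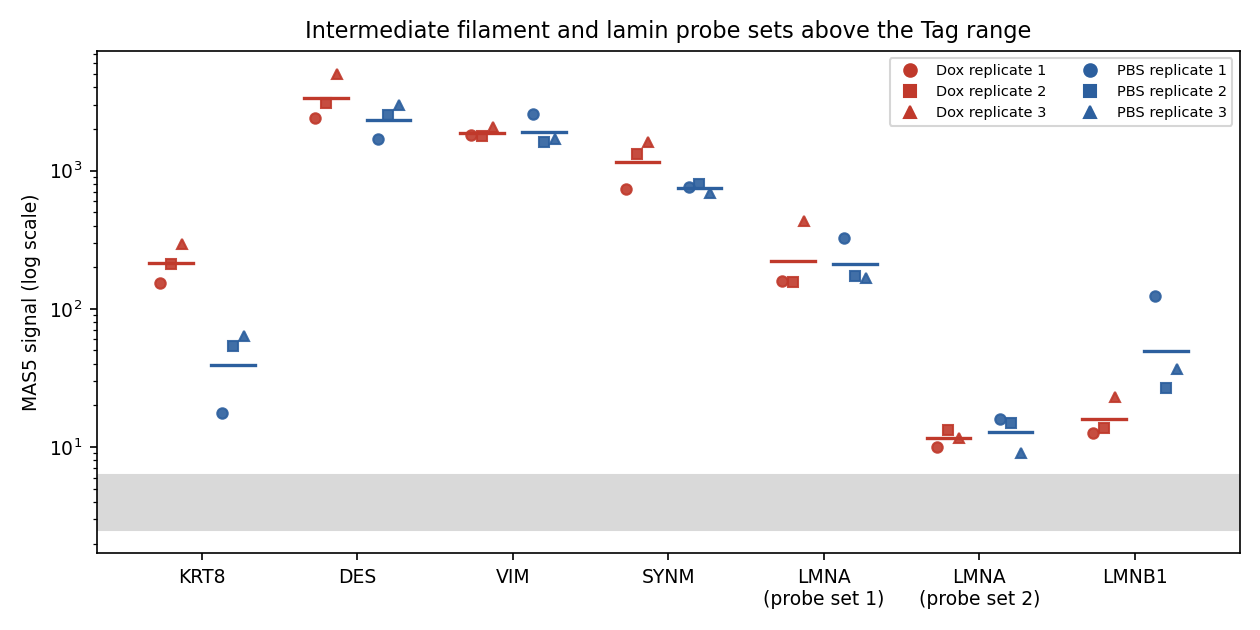
MAS5 signal (log axis) of the 7 member probe sets above the Tag range, with Dox-injected piglets in red and PBS-injected piglets in blue, 1 point per array and lines at the geometric mean of 3 arrays. The grey band spans the highest Tag signals, 2.5 to 6.3. The groups are apart for KRT8, higher in Dox, and for LMNB1, lower in Dox, and overlap for the other 5 probe sets.

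The filament genes of muscle were bright, and both had a higher mean in Dox-injected piglets, with overlapping groups. DES, which encodes desmin, had signals of 2394.5, 3076.1 and 5024.9 in Dox-injected piglets, against 1704.5, 2521 and 2967.2 in PBS-injected piglets. Its mean was 3498 ± 1365 in Dox-injected and 2398 ± 640 in PBS-injected piglets (SD, n = 3 each), and the log2 difference was 0.51 (standard error 0.30, 95% confidence interval from -0.17 to 1.20; limma, adjusted p = 0.59). Dox replicate 3 was the highest array, and without it the difference was 0.22. It was 0.29 without PBS replicate 1. The other DES probe set had all 6 signals within the Tag range, at 1.4 to 2.9 in Dox-injected and 0.5 to 3.3 in PBS-injected piglets.

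SYNM encodes synemin, a large filament protein that co-polymerises with desmin and links it to the membrane. Its signals were 741.2, 1310.2 and 1614 in Dox-injected piglets, against 764.3, 799.2 and 692.1 in PBS-injected piglets. Dox replicate 1 lay within the narrow PBS range and the other Dox arrays lay above it. The log2 difference was 0.63 (standard error 0.28, limma, adjusted p = 0.523, unadjusted p = 0.0493), and leaving out Dox replicate 1 gave 0.95, Dox replicate 3 0.39. Set against DES on the same arrays, SYNM differed between the groups by 0.12 on the log2 scale (exact permutation test, two-sided, p = 0.9), and this small value was below 0 without Dox replicate 2 (-0.03) or PBS replicate 3 (-0.11).

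Of 12 cardiomyocyte markers read beside DES and SYNM, 10 had a positive and 2 a negative log2 difference, with a median of 0.29 that was -0.05 after quantile normalization and 0.00 after cyclic loess. The difference of DES was 0.30 and 0.33 and that of SYNM 0.53 and 0.56 under these 2 scalings. MYH7, the slow myosin heavy chain of the ventricle, had signals of 7979.8, 7379.5 and 9785.6 in Dox-injected and 5898.7, 6615.7 and 6828.9 in PBS-injected piglets (log2 difference 0.37, limma, adjusted p = 0.521), and 0.03 was the smallest of its alternatives. In whole tissue, more cells of a type and more RNA per cell cannot be told apart.

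VIM, the vimentin gene, was the most even member. Its signals were 1809.8, 1791.4 and 2049.8 in Dox-injected piglets, against 2564.7, 1596 and 1703.6 in PBS-injected piglets. The mean was 1884 ± 144 in Dox-injected and 1955 ± 531 in PBS-injected piglets (SD, n = 3 each), and the log2 difference was -0.02 with a 95% confidence interval from -0.49 to 0.44 (limma, adjusted p = 0.974). The sign turned when single arrays were left out. PBS replicate 1 was the highest array, and without it the difference was 0.19.

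Markers of the cell types that carry vimentin were read beside it. Of 10 fibroblast markers, 1 had a positive and 9 a negative log2 difference (median -0.79), and 5 were nominally lower in Dox, against 5.92% of all probe sets and 6.61% of the genes at 1 probe set each. Without PBS replicate 1 the count was 1, against 2.50% of all probe sets. DCN, the gene of the matrix proteoglycan decorin, had signals of 1231.5, 853.1 and 661.8 in Dox-injected and 1712.9, 1450.3 and 1861.7 in PBS-injected piglets (log2 difference -0.91, limma, adjusted p = 0.521). Of 9 endothelial markers, 2 had a positive and 7 a negative difference (median -0.56), and 2 were nominally lower, namely CDH5, the endothelial cadherin (-0.65), and TIE1, an endothelial receptor (-1.29). Without PBS replicate 1 the endothelial count was 1. Of 10 leukocyte and macrophage markers 5 had a positive and 5 a negative difference (median 0.16, or 0.57 without the 3 genes within the Tag range). The 2 nominally different ones were the calprotectin genes S100A8 and S100A9, higher in Dox, against 3.62% of all probe sets and 4.92% of the genes at 1 probe set each. In 9 smooth muscle and pericyte markers, where desmin and vimentin also occur, the median was -0.15, and KCNJ8, a potassium channel gene of pericytes, was nominally lower, at 170.8, 90.2 and 80.6 in Dox-injected and 233, 247.1 and 237.2 in PBS-injected piglets (log2 difference -1.15, limma, adjusted p = 0.521). In 5 Schwann and neural markers, 3 with a positive and 2 with a negative difference, the median was 0.20. SOX10, a transcription factor of Schwann cells, was nominally higher (log2 difference 1.38, limma, adjusted p = 0.521), but dim, with 3 of its 6 signals within the Tag range. It had 5.4, 4.3 and 9.4 in Dox-injected and 2.7, 1.4 and 3.3 in PBS-injected piglets, and 0.27 was the smallest of its alternatives. S100B, a calcium-binding protein of glia, had a log2 difference of -1.16 and GFAP one of -0.58. Without Dox replicate 3, or without PBS replicate 1, 0 of the 5 were nominally higher, and without PBS replicate 1 a count of 1 was nominally lower. The part of these cells in the VIM signal was not tested.

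**Figure D3:**
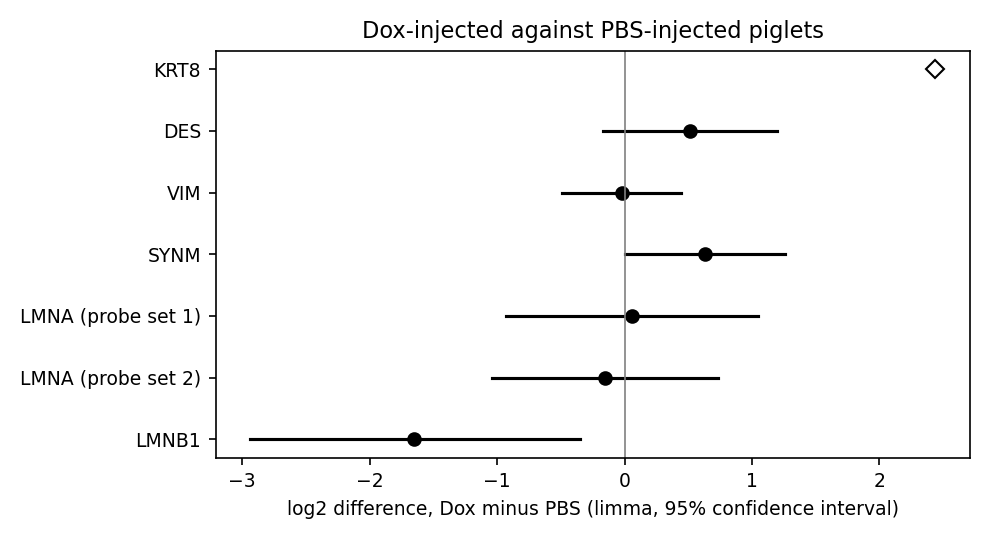
Log2 difference (horizontal axis, Dox minus PBS) of the 7 member probe sets above the Tag range. Bars are 95% confidence intervals from limma, before adjustment for the number of probe sets; KRT8 (open diamond, 2.44) has none because it was chosen for its difference, and LMNB1, at -1.65, lies farthest below 0.

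The lamin genes did not show a common direction. LMNB1, the only B-type lamin gene with a probe set here, had signals of 12.6, 13.8 and 23.1 in Dox-injected piglets, against 124.6, 26.9 and 36.7 in PBS-injected piglets. The highest Dox animal was below the lowest PBS animal, as for 10.1% of all probe sets in this direction. The mean was 16.5 ± 5.75 in Dox-injected and 62.7 ± 53.8 in PBS-injected piglets (SD, n = 3 each), and the log2 difference was -1.65 (standard error 0.57, 95% confidence interval from -2.94 to -0.35), with an adjusted p of 0.521 from limma and an exact permutation p of 0.1, the smallest that 3 animals against 3 allow. PBS replicate 1 was far above the other controls. Without it the groups were closer and the difference was -0.98, and it lay between -2.09 and -1.48 when any other array was left out.

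LMNA, which encodes lamins A and C, had signals of 159.8, 155.6 and 428.8 in Dox-injected piglets, against 327.7, 171.5 and 166.8 in PBS-injected piglets at its brighter probe set. A single array stood high in each group, Dox replicate 3 and PBS replicate 1, and the remaining 4 arrays lay between 155.6 and 171.5. The log2 difference was 0.06 (standard error 0.43, limma, adjusted p = 0.966), and -0.42 without Dox replicate 3. The second LMNA probe set had signals of 10, 13.3 and 11.7 in Dox-injected and 16, 14.9 and 9 in PBS-injected piglets, which is -0.15 on the log2 scale (standard error 0.39, limma, adjusted p = 0.907). Set against LMNA on the same arrays, LMNB1 was lower in Dox-injected piglets by a log2 difference of -1.71, without overlap between the groups (exact permutation test, two-sided, p = 0.1). The difference was -1.36 without PBS replicate 1.

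Genes of cell division were read beside LMNB1, since dividing cells express it strongly. Of 20 proliferation genes, 16 had a probe set and 16 had a negative log2 difference, with a median of -1.63 against -0.10 over all probe sets. Of them 12 were nominally lower, and 14 had groups without overlap. CCNA2 and TYMS, 2 of the 16, lay within the Tag range on 4 or more arrays, and the median of the other 14 was -1.65. Both are among the genes without overlap, and CCNA2 is among the 12. Over all probe sets, 5.92% were nominally lower and 10.1% were lower without overlap. None passed after adjustment over all probe sets (limma). RRM2, a subunit of the enzyme that makes deoxyribonucleotides, had signals of 13.5, 9.5 and 4.8 in Dox-injected and 81.1, 37.5 and 33.6 in PBS-injected piglets (log2 difference -2.46 with a standard error of 0.50, limma, adjusted p = 0.521). AURKB, a mitotic kinase, and BIRC5, survivin, had log2 differences of -2.26 and -1.87. PBS replicate 1 was the highest array for 16 of the 16 genes, as it was for LMNB1. Without it the median was -1.0 and 9 genes were nominally lower, against 2.50% of all probe sets. The part of dividing cells in the LMNB1 signal was not tested.

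**Figure D4:**
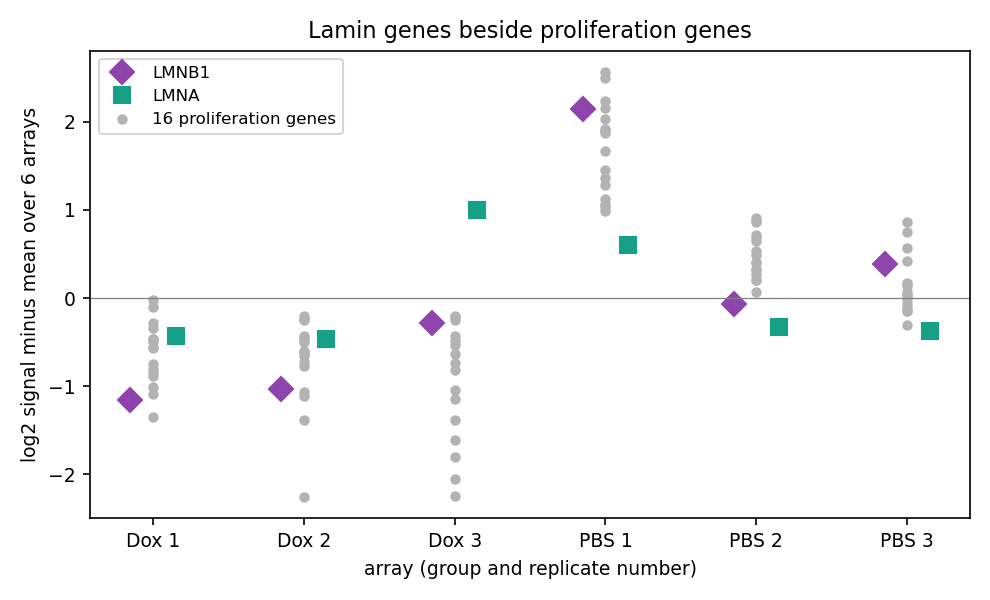
Log2 signal on each array minus the mean over the 6 arrays, for LMNB1 (purple diamonds), LMNA at its brighter probe set (green squares) and 16 proliferation genes (grey points), with Dox arrays on the left and PBS arrays on the right. LMNB1 and all 16 proliferation genes are highest on the array of PBS replicate 1, and LMNA is highest on that of Dox replicate 3. The grey points include CCNA2 and TYMS, which lie within the Tag range on 4 or more arrays.

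Over all members, limma called 0 of the 9 probe sets that could be tested, and 0 of 23999 on the whole array (0.0%), where a call needs an adjusted p no higher than 0.05 and a 2-fold difference. Nominally SYNM was higher and LMNB1 lower, 2 of the 9, against 9.54% of all probe sets (2290 probe sets, 3.62% higher and 5.92% lower). LMNB1 alone also differed 2-fold, against 5.65% of all probe sets. Among the alternatives run with limma, SYNM was nominally different only without Dox replicate 1, and was not under either normalization, log2(signal + 16), the dim filter, eBayes without a trend, the replicate block or without any other array. With the replicate block DES was nominally higher, as it was without Dox replicate 1. LMNB1 was not nominally different without Dox replicate 1, Dox replicate 2 or PBS replicate 1. With the methods' t-test on log2 signals, 0 of the 9 members and 1719 probe sets of the whole array were nominally different, and 0 passed after adjustment. Without KRT8, which was selected for its difference, 5 of the other 7 genes at their brightest probe set had a positive and 2 a negative log2 difference, with a median of 0.14, against -0.10 over all probe sets; 42.8% of all probe sets, and 44.1% of the genes at 1 probe set each, were positive. The 2 genes within the Tag range, KRT18 and KRT19, are among the 5 positive ones. The median of 0.14 is the value of KRT19 itself, so no direction of the members is read from it.

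Proteins that anchor filaments at cell junctions and the membrane were read as a list of 23 genes, of which 10 had a probe set. Of these 6 had a positive and 4 a negative log2 difference (median 0.22), 2 were nominally higher and 0 lower, against 3.62% of all probe sets higher and 4.92% of the genes at 1 probe set each, and 0 passed after adjustment. Without Dox replicate 3 the counts were 1 nominally higher and 1 lower, and without PBS replicate 1 they were 1 and 0. Without overlap between the groups, 2 of the 10 were higher and 1 lower in Dox, against 6.19% and 10.1% of all probe sets. XIRP1, an actin-binding protein of the intercalated disc, had signals of 1658.5, 3721.9 and 7131.6 in Dox-injected piglets, against 850, 1534.3 and 1193 in PBS-injected piglets. The groups did not overlap, and Dox replicate 3 was the highest array. The log2 difference was 1.61 (standard error 0.47, limma, adjusted p = 0.521), and 1.10 without Dox replicate 3. XIRP2, its relative, had the opposite sign, with signals of 195.5, 37 and 244.2 in Dox-injected and 203.2, 205.4 and 636 in PBS-injected piglets (log2 difference -1.30, limma, adjusted p = 0.575). DMD, the dystrophin gene, had signals of 46.3, 59.8 and 128.5 in Dox-injected and 27.8, 53.6 and 27.9 in PBS-injected piglets (log2 difference 1.03, limma, adjusted p = 0.521; 0.60 without Dox replicate 3).

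DSP encodes desmoplakin, the protein that fastens desmin to the desmosome. Its signals were 1091.7, 1108.3 and 1086.2 in Dox-injected piglets, against 815.8, 816.9 and 968.2 in PBS-injected piglets. The groups did not overlap and the Dox arrays were close to each other, but the difference was small, at 0.34 on the log2 scale (standard error 0.15, limma, adjusted p = 0.528), and it was 0.30 to 0.42 with any array left out. DST, of the same list, was lower in Dox without overlap. It had signals of 647.2, 583.6 and 306.5 in Dox-injected and 742.5, 693.1 and 686.7 in PBS-injected piglets (log2 difference -0.54, limma, adjusted p = 0.559). JUP, plakoglobin, which sits beside desmoplakin in the junction, had a log2 difference of -0.05 (adjusted p = 0.977).

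Chaperones and turnover factors of filaments were represented by 14 of 18 listed genes, 10 with a positive and 4 with a negative log2 difference (median 0.46, but 0.13 without Dox replicate 3), and 0 passed after adjustment. Nominally only HSPB7 was higher, a small heat shock protein of cardiac muscle, 1 of the 14 against 3.62% of all probe sets. Without Dox replicate 3 the counts were 0 nominally higher and 1 lower, and without PBS replicate 1 they were 0 and 0. HSPB7 had signals of 1715.7, 3158.9 and 5032.2 in Dox-injected piglets, against 1501.1, 1727.2 and 1841.9 in PBS-injected piglets (log2 difference 0.84, standard error 0.34, limma, adjusted p = 0.521). Without Dox replicate 3 it was 0.47. CRYAB, the chaperone of desmin, had signals of 4592, 4782.8 and 8708 in Dox-injected and 3738.5, 4043.8 and 4596.8 in PBS-injected piglets (log2 difference 0.49, adjusted p = 0.553; 0.19 without Dox replicate 3). BAG3, a co-chaperone, was high on the array of Dox replicate 3 alone, at 3696.8, against 716.7 and 670.5 on the other Dox arrays and 739.8 to 1044.9 on the PBS arrays. CASP6, the caspase that cleaves lamin A, had signals of 122.3, 98.6 and 38.1 in Dox-injected and 156.7, 133.3 and 130.8 in PBS-injected piglets, without overlap (log2 difference -0.86, adjusted p = 0.54; -0.35 without Dox replicate 3).

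Partners of the lamina were represented by 9 of 18 listed genes of the nuclear envelope, 2 with a positive and 7 with a negative log2 difference (median -0.33, but -0.01 without Dox replicate 3), and 0 passed after adjustment. Of the 2 positive genes SYNE1 lay within the Tag range on 5 arrays, and the median of the other 8 genes of the list was -0.36. SYNE2, which encodes nesprin-2, a giant protein that couples the nucleus to the cytoskeleton, was the only one nominally different, 1 of the 9 against 5.92% of all probe sets lower in Dox, and without PBS replicate 1 the count was 0. Its signals were 111.9, 74.7 and 28.5 in Dox-injected piglets, against 171.1, 138.2 and 135.1 in PBS-injected piglets (log2 difference -1.25, standard error 0.46, limma, adjusted p = 0.521). The groups did not overlap. Without Dox replicate 3, the lowest array, the difference was -0.69. TMPO, the gene of the lamina-associated polypeptide 2 proteins, had signals of 3.6, 4.8 and 4 in Dox-injected and 9.9, 5.9 and 5.8 in PBS-injected piglets, close to the Tag range (log2 difference -0.76, adjusted p = 0.6).

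The genes that process or bind prelamin showed little difference where they could be read. Of 6 listed genes 5 had a probe set, with 0 nominally different and a median log2 difference of -0.22. ZMPSTE24 had no probe set, and RCE1 lay within the Tag range on all 6 arrays, so neither could be read. The median of the other 4 genes was -0.07. FNTA and FNTB, the subunits of the farnesyltransferase that modifies lamins, had log2 differences of 0.19 and -0.22 (limma, adjusted p = 0.725 and 0.772), and ICMT, which methylates the farnesylated end, one of 0.07 (adjusted p = 0.926). NARF, which binds prelamin A, had signals of 160.7, 125.4 and 85.4 in Dox-injected and 169.3, 121.5 and 135.5 in PBS-injected piglets.

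Of 28 other intermediate filament genes only 5 had a probe set, and 3 of these, KRT1, KRT2 and NEFL, were within the Tag range on 4 or more arrays. The median log2 difference was -0.58 over the 5 genes and -0.34 over the other 2, KRT10 and GFAP. KRT10, a type I keratin, had signals of 184, 204.8 and 218 in Dox-injected and 226.4, 234.2 and 194.4 in PBS-injected piglets (log2 difference -0.11, limma, adjusted p = 0.862). GFAP, the filament gene of glia, had signals of 6, 5.9 and 7.5 in Dox-injected and 8.6, 11.2 and 9.2 in PBS-injected piglets (log2 difference -0.58, adjusted p = 0.63).

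**Figure D5:**
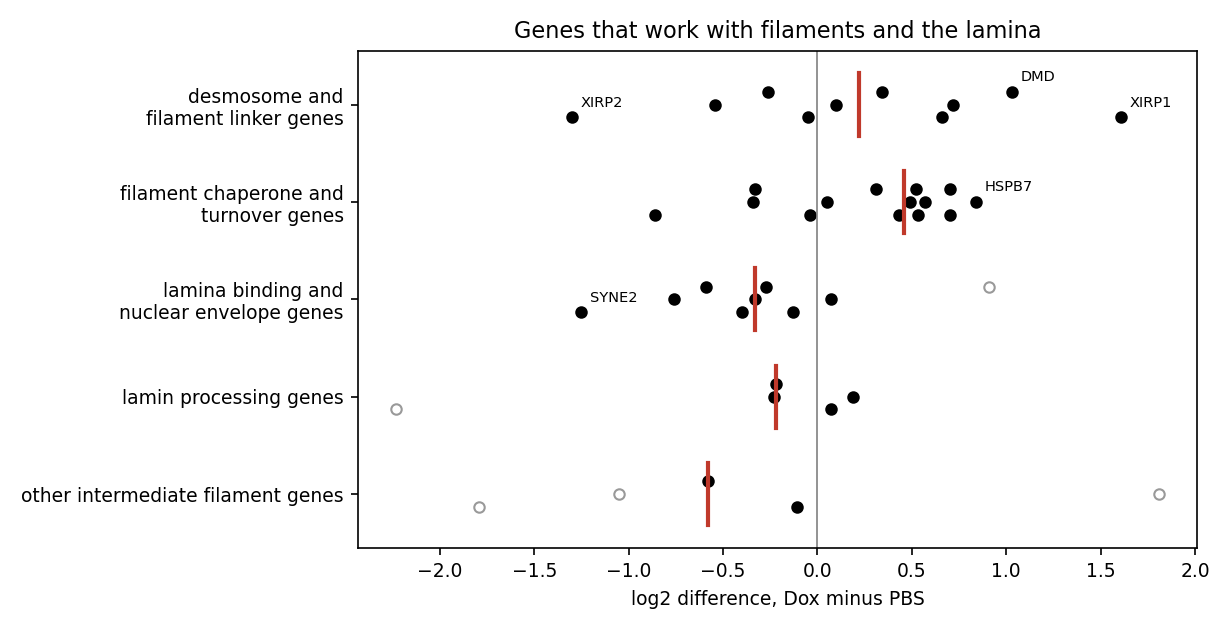
Log2 difference (horizontal axis, Dox minus PBS) of each measured gene in 5 lists, with open grey circles for genes within the Tag range on 4 or more arrays and a red line at the median of each list. The medians include the open circles and run from 0.46 for filament chaperone and turnover genes to -0.58 for other intermediate filament genes. Without the open circles the lowest medians are -0.36 for nuclear envelope genes and -0.34 for other intermediate filament genes. XIRP1 (1.61) and SYNE2 (-1.25) are among the named genes farthest from 0.

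Across the 6 arrays, the genes whose log2 signals were most like those of KRT8, of 4986 genes above the median signal, were NUBP1 (Pearson r = 0.995), PNPLA2 (0.994), ELOB (0.99), NABP2 (0.989) and POLR2I (0.987). The likeness includes the group difference for which KRT8 was picked, and arrays of 1 group share their treatment, so it is a description over 6 points. PNPLA2, a triglyceride lipase, had signals of 841.3, 994.6 and 1147.8 in Dox-injected and 332.4, 605.3 and 628.9 in PBS-injected piglets. NUBP1, an iron-sulfur cluster assembly factor, had signals of 333, 348.5 and 418.6 in Dox-injected and 146.6, 219.2 and 251.5 in PBS-injected piglets. Like KRT8, both were lowest in PBS replicate 1 and highest in Dox replicate 3.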

How the data were processed

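The deposited values are MAS5 intensity values per probe set, which the authors computed with GCOS 1.4 at default settings and scaled per array. Scanner files were not used here, so their background correction was kept. Of 24123 probe sets, 124 array controls were left out. Signals of 0, present for 311 probe sets, were raised to 0.1, and log2 was taken. In R 4.3.3, limma 3.58.1 (lmFit, eBayes with an intensity trend; prior degrees of freedom 4.497) was fitted over all 6 arrays, with Benjamini-Hochberg adjustment over 23999 probe sets. Single values were also compared by an exact two-sided permutation test, which with 3 animals against 3 cannot give a p below 0.1. The scripts were tested on simulated data. Groups and replicate numbers came from the sample titles. Gene symbols came from the platform's annotation table, where 198 probe sets have several symbols and 13732 none. A gene was represented by its brightest probe set (geometric mean over the arrays). Named genes are all members, up to 3 genes with the smallest p of each of 13 lists, and the 5 genes most like KRT8. Genes within the Tag range were passed over in this, a step added after their values were seen. Further genes (XIRP2, DST, BAG3, JUP, SYNE1, ICMT, RCE1, EPCAM, CDH1, CALB2, WT1, KRT1, KRT2, NEFL, MBP, CCNA2 and TYMS) were chosen after their values were seen. The members and lists were chosen with earlier results of these data known, and the Tag range was set after values were seen. The number of arrays limits the precision. Replicate numbers were not used as pairs in the main fit. The correlations of same-numbered deviations were -0.00556, 0.0236 and -0.0554, which cannot show whether animals were paired in another way. The paper speaks of 3 pairs of failing and non-failing samples. Tried beside this were normalization by quantiles or by cyclic loess, log2(signal + 16), a dim filter (geometric mean above 15.5, 11999 probe sets), a trend-free eBayes, the methods' t-test, a replicate block, leaving out each array, the mean of a gene's probe sets and the ratio of arithmetic means. Figures were drawn with matplotlib 3.10.9.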

Additional observations from a re-analysis of the deposited data

How the results depend on the processing

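The count of probe sets called by limma was 0 in the main analysis and under quantile and cyclic loess normalization, log2(signal + 16), the dim filter, eBayes without a trend, both forms of the methods' t-test and the replicate block (0 with the number as a block). It was 0 to 14 with 1 array left out, the 14 without Dox replicate 1, and 1356 when the p was left unadjusted. With the block, LMNB1 was -1.65 (adjusted p = 0.479). LMNB1 was among the 1356, and no tested member passed under the settings with adjusted p. DES and SYNM kept their direction under all alternatives run. The KRT8 difference was 0.98 when both of its probe sets were averaged. VIM ran from -0.15 to 0.19 with 1 array left out, and was 0.00 without Dox replicate 1, 0.01 without Dox replicate 2 and 0.19 without PBS replicate 1. The brighter LMNA probe set was -0.42 without Dox replicate 3, -0.09 without PBS replicate 2 and -0.11 without PBS replicate 3, and its values with 1 array left out ran from -0.42 to 0.38. The dimmer one was 0.07 with quantile, 0.05 with cyclic loess and 0.00 without PBS replicate 1, and ran from -0.41 to 0.00 with 1 array left out. NARF was 0.01 without Dox replicate 3, from -0.44 to 0.01 with 1 array left out, and TNNC1, the cardiac troponin C gene, -0.04 with quantile normalization. LMNB1 set against LMNA was -1.15 with log2(signal + 16). For these the cause was not tested.

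The median over all probe sets was -0.10 in the main analysis and 0.00 after quantile or cyclic loess normalization. List medians that moved by more than the spread of the arrays were, with log2(signal + 16), which shrinks differences of dim genes by its construction, -0.10 for other filament genes, -0.21 for endothelial markers and -0.90 for proliferation genes. With the dim filter, which leaves fewer genes, the medians were 0.50 for linkers and 0.57 for leukocyte markers. Only KRT10 was left of the other filament genes (-0.11), and only CLDN7 of the epithelial and mesothelial markers (0.45). S100B and MBP were left of the Schwann and neural markers (median -0.16). Cyclic loess gave -0.03 for lamin processing genes and 0.00 for cardiomyocyte markers, and quantile -0.05 for these cardiomyocyte markers. With 1 array left out, the medians ran from 0.13 to 0.53 for chaperones, -0.52 to -0.01 for the nuclear envelope, -0.32 to 0.01 for lamin processing, -0.19 to 0.39 for epithelial and mesothelial markers, -0.13 to 0.49 for leukocyte markers and -0.09 to 0.31 for Schwann and neural markers. The cause was not tested. Signal over background limits KRT18, KRT19 and the second probe sets of KRT8 and DES, for which no difference is read.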
